A study of Mus musculus with 4 samples.

Results

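The genes described here are those of the intercalated cell and of its proton pump, the vacuolar H+-ATPase. They were chosen by name from the deposited table. Every protein-coding gene whose symbol begins with Atp6v or Atp6ap was taken, pseudogenes left out, which gave 25 genes of pump subunits and accessory proteins. A further 12 genes were named singly, namely Slc4a1, Slc4a9, Slc26a4, Slc26a7, Foxi1, Car2, Car12, Car15, Rhbg, Rhcg, Aqp6 and Hepacam2. Together these were 37 of the 54078 features in the table, of which 22058 are protein-coding genes.

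The study asked what the loss of Apela from renal tubules does to the injured kidney. Apela encodes ELA, a peptide ligand of the receptor APJ. Both renal pedicles of adult male mice were clamped for 30 min, and kidney RNA was sequenced at day 3 of reperfusion (bI/R 3D) in 2 WT and 2 ApelaKsp KO libraries, each made from RNA of 3 mice. All 4 libraries therefore come from injured kidneys, and a level in uninjured kidney was not analysed here. KO mice carry floxed Apela alleles and a Cre recombinase under the Ksp-cadherin promoter, which acts in renal tubular epithelial cells. WT mice carry the floxed alleles without Cre. The labels give the strain as C57BL/6 x 129S4/SvJae and the study's methods as C57BL/6. The series text names adipose tissue where its title and the sample labels name kidney. Of the 4 adipose markers, Ucp1 had an FPKM (fragments scaled by gene length and library total) of 0 in all pools and Adipoq of 0, 0, 0 and 0.268. Plin1 was above 0 in every pool but at most 0.347, and Lep was at most 0.0184, whereas kidney genes were abundant.

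Values are given in the order WT replicate 1, WT replicate 2, KO replicate 1 and KO replicate 2, and the libraries are called pools. Between 16045724 and 16927742 reads per pool fell on genes. Apela itself had an FPKM of 5.27, 4.57, 0.536 and 0.245, from 85, 79, 9 and 4 reads, so the KO pools were below the WT pools. WT replicate 2 stood apart in its macrophage genes. The summed FPKM of 13 listed macrophage genes was 210, 496, 266 and 237. Proximal tubule markers also varied between pools of 1 group, with summed FPKM of 11149, 6035, 7371 and 11214 over 11 listed genes, most of it from Kap with 8976, 4387, 6038 and 9316.

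Intercalated cells are the acid-base cells of the connecting tubule and collecting duct, scattered among the principal cells that handle water and sodium. Type A cells secrete acid through an apical vacuolar H+-ATPase and return bicarbonate to the blood through the anion exchanger AE1, whereas type B cells secrete bicarbonate through pendrin. The pump is a rotary machine. Its cytosolic V1 sector hydrolyses ATP at the A subunits, which alternate with B subunits, and its membrane V0 sector carries protons through the ring of c subunits beside the a subunit. Every cell uses the same complex to acidify lysosomes and endosomes, but for 5 of the subunits the kidney also makes an isoform of restricted expression (B1, C2, G3, a4 and d2). These are the isoforms of the intercalated cell, and a4 is made in proximal tubule cells as well. Foxi1 is the transcription factor on which intercalated cells depend.

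To set the start sites of restricted and broad isoforms side by side, the promoters of 25 of the 37 genes were matched in RefSeq (GRCm38.p6), each from 250 bases before to 50 bases after the start. The forkhead motif GTAAACA, or its reverse complement TGTTTAC, was looked for because Foxi1 is a forkhead factor. It occurred in 1 of the 25, the promoter of Atp6v1b1, from base -98 to base -92 relative to the RefSeq start, and in 3.65% of all 32851 promoters in the table. The stretch before the annotated first exon (chr6:83742767-83742989, plus strand) is printed with the motif in capitals.
Atp6v1b1: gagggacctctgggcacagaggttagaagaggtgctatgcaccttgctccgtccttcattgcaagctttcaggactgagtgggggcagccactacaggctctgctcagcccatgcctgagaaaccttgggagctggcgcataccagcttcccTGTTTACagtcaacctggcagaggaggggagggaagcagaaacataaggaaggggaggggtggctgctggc

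The palindrome TCACGTGA, an E-box of the kind bound by the lysosomal regulator TFEB, was looked for in the same promoters. It occurred in 3 of the 11 matched broad subunits (Atp6v1a, Atp6v0d1 and Atp6v0e), in 0 of the 4 matched restricted isoforms, and in 0.974% of all promoters. The motif lay from base -132 to -125 in Atp6v1a (chr16:44139373-44139402, minus strand), from -4 to 3 in Atp6v0d1 (chr8:105566050-105566079, minus strand) and from 2 to 9 in Atp6v0e (chr17:26676387-26676416, plus strand). The windows of 30 bases are printed with the motif in capitals, since they set the ubiquitous subunits beside the kidney isoform above. A match is a description of the letters and not of a bound site.
Atp6v1a: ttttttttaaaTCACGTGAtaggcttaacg
Atp6v0d1: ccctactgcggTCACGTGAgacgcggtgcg
Atp6v0e: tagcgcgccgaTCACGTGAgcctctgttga

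At day 3 all parts of the pump and most intercalated cell genes were readily measured. Of the 37 genes, 33 had a mean FPKM of at least 0.5 and were tested. The most abundant was Car2, cytosolic carbonic anhydrase, with 205, 149, 229 and 184. Next came the V1 stalk subunits Atp6v1g1, with 134, 107, 111 and 128, and Atp6v1f, with 124, 102, 108 and 139, whose ranges overlap each other. The broad subunits ran from an FPKM of 4.54 for Atp6v1c1 in WT replicate 1 up to the 139 of Atp6v1f. Among the restricted isoforms Atp6v0a4 was the most abundant and Atp6v1c2 the least in every pool.

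The 4 genes that were not tested had a mean FPKM under 0.5. Atp6v1e2, an isoform of the E subunit known from testis, had 1 read in WT replicate 2 and 0 in the others. Atp6ap1l, a relative of the accessory protein Ac45, had 0 reads in all pools, where 3 reads is the number that a count of 0 still allows. Car15, a membrane-anchored carbonic anhydrase, had 6, 9, 4 and 1 reads, and 65.7% of its exonic bases are shared with the read-through gene Gm20518 on the same strand, which had 98, 81, 131 and 82 reads. How reads were divided between the pair is not known, so the level of Car15 is uncertain. Slc26a7, a basolateral anion transporter of medullary type A cells, had 36, 10, 12 and 15 reads, so that WT replicate 1 alone was high.

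**Figure D1:**
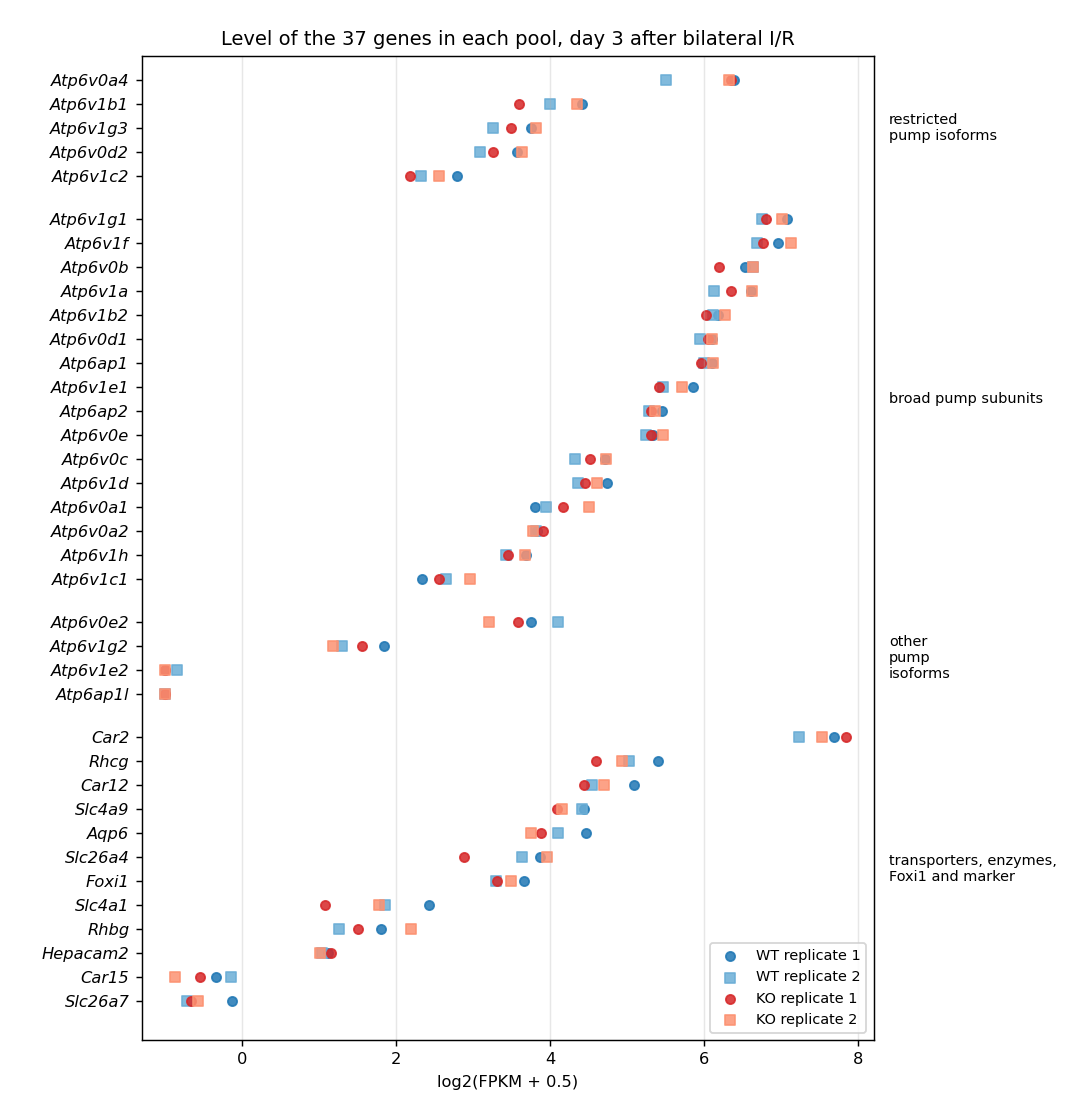
Level of each of the 37 genes in each pool, as log2(FPKM + 0.5) on the horizontal axis, grouped by class and ordered by mean level within it. Blue symbols are WT pools and red symbols KO pools. For most genes the red and blue symbols interleave, Atp6v1e2, Atp6ap1l, Car15 and Slc26a7 lie at the low end, and WT replicate 2 lies apart on the low side for Atp6v0a4.

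No gene of the set differed between KO and WT at an adjusted p under 0.05 (limma with Benjamini-Hochberg adjustment), where 0 of all 15414 tested genes (0.0%) did and the smallest adjusted p over all genes was 0.466. The same count was 0 with voom weights. Apela, far lower in both KO pools, was thus not called either, so the count of 0 does not show that the members are unchanged. The study itself did report differentially expressed genes at an adjusted p under 0.05. At an unadjusted p under 0.05 there were 4 of 33, or 12.1%, beside 6.32% of all genes tested. These were Atp6v0a1, higher in KO (3.29% of all genes were called in that direction), and Atp6v0e2, Slc4a9 and Aqp6, lower in KO (3.03% of all genes). Both KO pools lay above both WT pools for 1 member, or 3.03%, beside 19.7% of all genes. Both lay below for 5 members, Slc4a1, Slc4a9, Rhcg, Aqp6 and Atp6v0e2, or 15.2%, beside 18.1% of all genes. The other 27 tested members overlapped between groups. The log2 fold change was above 0 for 16 members and below 0 for 17, with a median of -0.0024 beside 0.0071 over all genes. The median of the members was -0.13 if WT replicate 2 was dropped, 0.10 if WT replicate 1 was dropped and -0.089 after quantile normalization. A lower level in whole kidney RNA can come from fewer cells of a type or from less RNA per cell, and these cannot be told apart here.

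**Figure D2:**
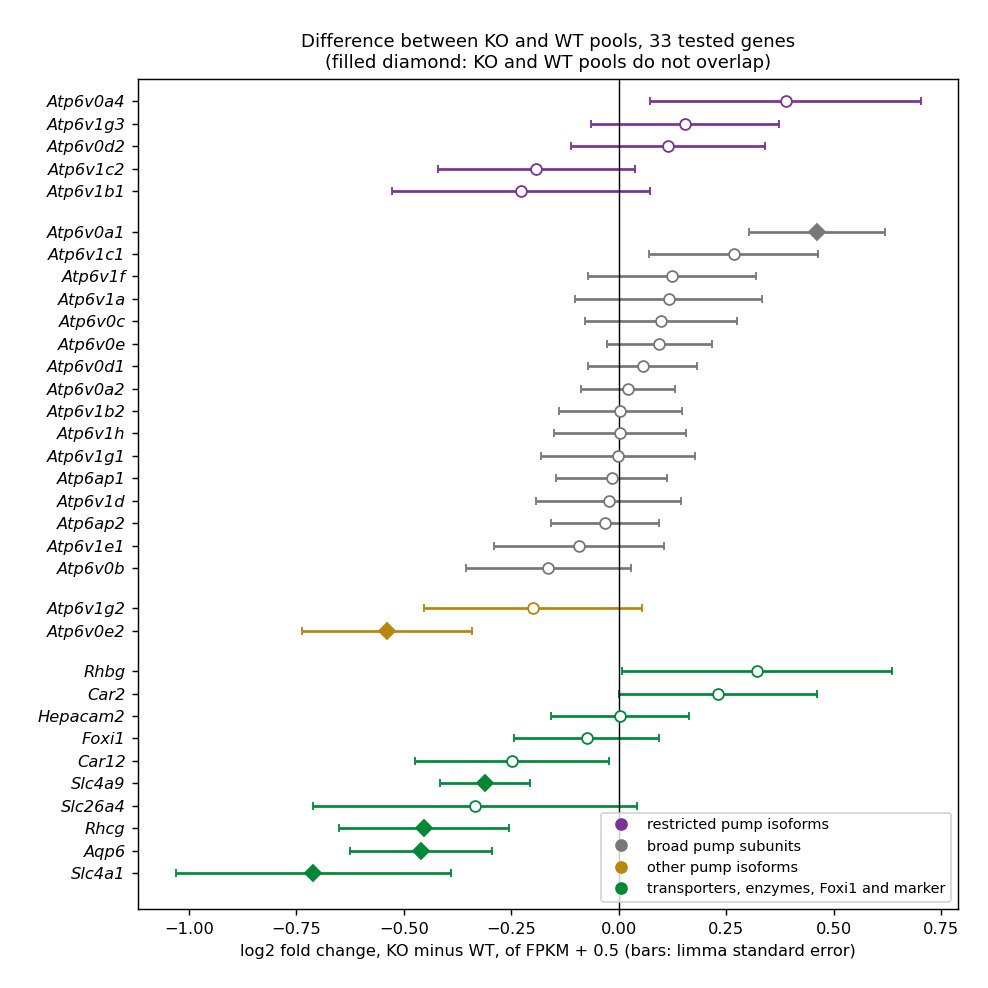
Log2 fold change, KO minus WT, of log2(FPKM + 0.5) for the 33 tested genes, with bars for the standard error from limma. Filled diamonds mark the 6 genes whose KO and WT pools do not overlap. The broad pump subunits sit around 0, with Atp6v0a1 apart at 0.46. The 4 transporters without overlap (Slc4a9, Rhcg, Aqp6 and Slc4a1) lie between -0.31 and -0.71. Slc26a4, whose pools overlap, lies in the same range at -0.33, and the transporter Rhbg lies at 0.32.

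The restricted pump isoforms overlapped between the groups in 5 of 5 cases, beside 62.2% of all genes tested. Their median log2 fold change was 0.11, and its sign depended on the pools used. Leaving out WT replicate 1 gave 0.35 and leaving out WT replicate 2 gave -0.13, while the median came to 0.30 if KO replicate 1 was dropped and to -0.073 if KO replicate 2 was dropped. Atp6v1b1 (chromosome 6, 83742990 to 83758855), the B1 subunit, which pairs with the catalytic A subunit in the pump of the intercalated cell, had an FPKM of 20.8, 15.5, 11.6 and 20.0. KO replicate 1 was the lowest and KO replicate 2 close to the highest, and the difference of -0.23 (SE 0.30, adjusted p = 0.899) was smaller than its error. Without KO replicate 1 its sign turned, with a log2 fold change of 0.15. Its broad partner Atp6v1b2, the B2 subunit of all cells, had 72.2, 68.6, 64.8 and 76.8 and a log2 fold change of 0.0037 (SE 0.14), which was negative at -0.094 after quantile normalization.

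Atp6v0a4 (chromosome 6, 38048483 to 38124586), the a4 subunit that sends the pump to the apical membrane, had 83.5, 44.8, 80.9 and 79.6. Of the 4 pools, 3 agree within a few units and WT replicate 2 is lower. The log2 fold change of 0.39 (SE 0.32, adjusted p = 0.844) rested on that pool, and without it the value was -0.058. Atp6v0a1, the a1 isoform that is best known from neurons and is found widely, had 13.4, 15.0, 17.5 and 22.2. The KO pools exceeded both WT pools, the mean was 14.2 ± 1.07 in WT and 19.8 ± 3.32 in KO (SD, n = 2), and KO was 39.8% higher. This was the largest positive difference among the members, 0.46 on the log2 scale (SE 0.16, unadjusted p = 0.0363, adjusted p = 0.785), and it ran from 0.29 to 0.63 with 1 pool left out. Atp6v0a2, the a2 isoform of the Golgi and endosomes, was level at 13.7, 13.6, 14.5 and 13.3.

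The peripheral stalk and neck showed the same lack of separation. Atp6v1c2, the C2 subunit that joins V1 to V0, had 6.44, 4.49, 4.01 and 5.38 (log2 fold change -0.19, SE 0.23). WT replicate 1 was the highest, and the value was 0.046 without it. Its broad partner Atp6v1c1 had 4.54, 5.75, 5.39 and 7.25 (0.27, SE 0.20). Here KO replicate 2 was the highest, and the value was 0.11 without WT replicate 1 and 0.069 without KO replicate 2. Atp6v1g3, the stalk subunit G3, had 12.9, 9.03, 10.8 and 13.5 (0.15, SE 0.22), and the value was -0.094 without WT replicate 2 and -0.0048 without KO replicate 2. Atp6v1g1, its broad partner described above, differed by -0.0024 (SE 0.18). Atp6v0d2, the d2 subunit at the base of the rotor, had 11.4, 8.004, 9.05 and 11.9 (0.11, SE 0.23), and its value was -0.13 with WT replicate 2 dropped and -0.073 with KO replicate 2 dropped. Its broad partner Atp6v0d1 had 67.9, 60.9, 65.7 and 68.1 (0.056, SE 0.13), which came to -0.022 with WT replicate 2 dropped. Atp6v0d2 is also made by some macrophages, and it was lowest in WT replicate 2, where macrophage genes were highest. Their part in its level was not tested.

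Among the 16 broad subunits and accessory proteins 10 had a positive and 6 a negative log2 fold change, with a median of 0.012. That median ran from -0.080 to 0.13 with 1 pool left out, lowest when WT replicate 2 and highest when WT replicate 1 was dropped, and it was -0.029 after quantile normalization and -0.060 with voom weights. Apart from Atp6v0a1 and Atp6v1c1 they lay between -0.16 for Atp6v0b, the c'' subunit of the proton ring, and 0.12 for Atp6v1f. Atp6v1a, the catalytic A subunit, had 97.2, 69.3, 81.2 and 97.6. Ac45 and the prorenin receptor, the accessory proteins encoded by Atp6ap1 and Atp6ap2, differed by -0.017 (SE 0.13) and -0.032 (SE 0.12). Counting is uncertain for Atp6v0c, the c subunit of the ring, since 32.5% of the 50-base windows in its transcripts also occur in 2 processed pseudogenes, and to a lesser degree for Atp6v1g1 (19.2%) and Atp6v1f (12.5%).

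Of the 4 other pump isoforms 2 were tested, and both had a negative log2 fold change. Atp6v0e2, the second isoform of the small V0 subunit e, had 13.01, 16.6, 11.4 and 8.69. Both KO pools were below both WT pools, with a mean of 14.8 ± 2.57 in WT and 10.1 ± 1.95 in KO (SD, n = 2). The log2 fold change was -0.54 (SE 0.20, unadjusted p = 0.0446, adjusted p = 0.785), and from -0.73 to -0.35 with 1 pool left out. Its broad partner Atp6v0e had 40.0, 37.4, 39.2 and 43.5, so the summed FPKM of the e subunit was 53.0, 54.0, 50.7 and 52.2. Atp6v1g2, the G isoform of neurons, had 3.07, 1.97, 2.45 and 1.77 and overlapped between the groups, with a log2 fold change of -0.20 (SE 0.25) that was 0.068 without WT replicate 1.

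FPKM is scaled by gene length, so the share of an isoform in its subunit depends on the length used. For Atp6v1c1 that length is 5601 exonic bases, though its longest coding transcript has 2022 windows of 50 bases. For Atp6v1c2 the numbers are 2174 and 1520. The size of a share is therefore uncertain, and shares are better compared between pools than between subunits. The share of the restricted isoform was highest in the a subunit and lowest in the G subunit in every pool. Atp6v0a4 accounted for 75.5%, 61.1%, 71.7% and 69.2% of the summed FPKM of the a isoforms. The share in WT replicate 2 was the lowest, and the groups overlapped (difference 2.15 percentage points, exact permutation p = 1.0, two-sided). The difference was -5.04 points without WT replicate 2, 9.33 without WT replicate 1, and -0.351 when only the most abundant broad isoform was counted beside it. Counting Tcirg1, the a3 isoform of osteoclasts and macrophages whose FPKM was 11.3, 17.8, 11.7 and 11.6, the shares became 68.5%, 49.2%, 65.0% and 62.8%. Atp6v1c2 made up 58.6%, 43.9%, 42.7% and 42.6% of the C subunit. Both KO shares were below both WT shares, but the 3 lower values lie close together and WT replicate 1 alone is high. Without it the difference of -8.59 points shrank to -1.21 points, and with WT replicate 2 left out instead it was -16.0 points.

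Atp6v1b1 gave 22.3%, 18.4%, 15.2% and 20.6% of the B subunit, with groups that overlap. Atp6v0d2 gave 14.3%, 11.6%, 12.1% and 14.9% of the d subunit, again with overlap. Atp6v1g3 gave 8.61%, 7.66%, 8.65% and 9.44% of the G subunit, and both KO shares were above both WT shares by a small margin (difference 0.906 points, and from 0.432 to 1.38 points with 1 pool left out, lowest when WT replicate 2 and highest when WT replicate 1 was dropped). The exact permutation test of 2 against 2 pools cannot go below 0.33, and that was its p for Atp6v1c2 and Atp6v1g3, while for Atp6v1b1 and Atp6v0d2 it was 0.667. The summed FPKM of each subunit also differed widely within the complex. Its mean over the 4 pools was 86.3 for A, 87.6 for B, 103 for a and 134 for G. It was 10.8 for C and 11.4 for H, the subunits that attach and regulate V1. These sums depend on the gene lengths used, as the shares do. Atp6v1h, the gene of H, has 9746 exonic bases but 2000 windows in its longest coding transcript, as against 1135 and 1086 for Atp6v1g1. The low FPKM of C and H therefore cannot be read as a low number of transcripts.

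**Figure D3:**
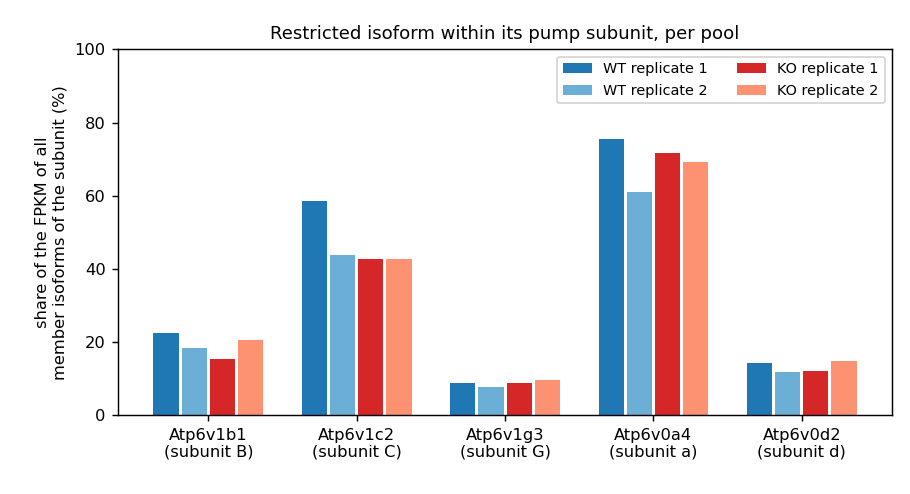
Share of the restricted isoform in the summed FPKM of its subunit, in percent, with 1 bar per pool. Atp6v0a4 makes up between 61.1% and 75.5% of the summed FPKM of the a isoforms, with Tcirg1 not counted. With Tcirg1 counted, which is not drawn, its share is between 49.2% and 68.5%. Atp6v1g3 makes up between 7.66% and 9.44% of the summed FPKM of the G isoforms. WT replicate 1 is high for Atp6v1c2, and the WT and KO bars interleave for Atp6v1b1, Atp6v0a4 and Atp6v0d2.

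The singly named genes hold the transporters of the intercalated cell together with its carbonic anhydrases, Foxi1 and Hepacam2. Of the 10 tested genes of this group, 7 had a negative log2 fold change, 4 lay below WT in both KO pools (40.0%, beside 18.1% of all genes), and the median was -0.28. Leaving out WT replicate 1 or KO replicate 1 brought that median to -0.096 or -0.094. Slc4a9 encodes AE4, a basolateral transporter of type B cells. It had 21.3, 20.9, 16.5 and 17.2, with a mean of 21.1 ± 0.289 in WT and 16.9 ± 0.487 in KO (SD, n = 2), so the pools of each group lie close together and apart from the other group. The log2 fold change of -0.31 (SE 0.10, unadjusted p = 0.0342, adjusted p = 0.785) stayed between -0.34 and -0.28 with 1 pool left out.

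Aqp6, a water channel of intracellular vesicles in type A cells, had 21.6, 16.6, 14.3 and 13.01. Both KO pools were below both WT pools, and the log2 fold change was -0.46 (SE 0.16, unadjusted p = 0.0419, adjusted p = 0.785). Without WT replicate 1 it was -0.27. Rhcg, the apical and basolateral ammonia channel, had 41.8, 32.1, 23.6 and 30.0, with a log2 fold change of -0.45 (SE 0.20, unadjusted p = 0.0745, adjusted p = 0.797). WT replicate 2 and KO replicate 2 lie near each other, and the value was -0.26 without WT replicate 1 and -0.28 without KO replicate 1. Rhbg, its basolateral relative, had 2.99, 1.89, 2.35 and 4.07 and overlapped between groups, with a log2 fold change of 0.32 (SE 0.31) that was -0.021 without KO replicate 2. It shares 61.4% of its exonic bases with the read-through gene Gm38392, which had at most 1 read in any pool.

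Slc4a1, the exchanger AE1 of type A cells, had the largest negative difference of the set. Its FPKM was 4.86, 3.11, 1.61 and 2.92, from 382, 262, 132 and 232 reads. Both KO pools were below both WT pools, though KO replicate 2 and WT replicate 2 are close, and the log2 fold change was -0.71 (SE 0.32, unadjusted p = 0.0815, adjusted p = 0.797). Leaving out KO replicate 1 gave -0.36, and leaving out KO replicate 2 gave -1.06. AE1 is also the band 3 protein of red blood cells. Hba-a1, an alpha globin gene, had 51.5, 49.5, 24.5 and 76.4, and the summed FPKM of 7 red blood cell genes was 129, 127, 65.2 and 179. This sum was thus lowest in KO replicate 1, as was Slc4a1, but highest in KO replicate 2, where Slc4a1 was below both WT pools. Not every red cell gene followed the sum, as Hba-a2 had 11.2, 6.80, 4.57 and 10.6. Of the 6 red cell genes tested, 1 (Epb42, the band 3 partner protein 4.2) was below WT in both KO pools (16.7%, beside 18.1% of all genes), with 0.861, 0.880, 0.519 and 0.330. Their part in the Slc4a1 values was not tested.

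Slc26a4, which encodes pendrin, had 14.1, 12.0, 6.86 and 15.1. KO replicate 1 was low and KO replicate 2 was the highest of all, so the log2 fold change of -0.33 (SE 0.38, adjusted p = 0.883) turned to 0.21 without KO replicate 1. Foxi1 had 12.2, 9.35, 9.46 and 10.8, with a log2 fold change of -0.075 (SE 0.17, adjusted p = 0.946) and overlapping groups. Its value was 0.11 without WT replicate 1 and 0.016 without KO replicate 1. Hepacam2, an adhesion protein that marks intercalated cells, had 1.67, 1.55, 1.72 and 1.52 and a log2 fold change of 0.0034 (SE 0.16), which was -0.0018 with median-of-ratios scaling. Car12, a membrane-bound carbonic anhydrase, had 33.7, 22.8, 21.3 and 25.4 (-0.25, SE 0.23). WT replicate 1 was above the other pools, and the value was 0.028 without it. For Car2, which other nephron segments make too, the difference was 0.23 (SE 0.23, adjusted p = 0.867). It came to 0.0020 without WT replicate 2 and to 0.073 without KO replicate 1, and it was 0.46 without WT replicate 1 and 0.39 without KO replicate 2.

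Other genes known from intercalated cells were taken as a list of 12, of which 9 were tested. Of these, 8 had a negative log2 fold change and 1 a positive one, 4 lay below WT in both KO pools (44.4%, beside 18.1% of all genes), none had an unadjusted p under 0.05, and the median was -0.17. With 1 pool left out that median ran from -0.32, with WT replicate 2 dropped, to -0.074, with WT replicate 1 dropped. Insrr, the alkali-sensing receptor of type B cells, had 3.83, 3.31, 1.59 and 3.01 and a log2 fold change of -0.58 (SE 0.28, adjusted p = 0.797), which was -0.21 without KO replicate 1. Hmx2, a transcription factor, had 2.44, 1.57, 1.06 and 1.51, with KO replicate 2 just under WT replicate 2 (-0.48, SE 0.26), and its value was -0.23 without WT replicate 1. The other pair without overlap, Avpr1a and Slc26a11, had log2 fold changes of -0.17 and -0.12. Avpr1a came to -0.080 without WT replicate 1, and Slc26a11 to -0.060 without KO replicate 2. The principal cells of the same collecting duct had a median of 0.036 over 8 tested genes, 5 higher and 3 lower, and 1 (Hsd11b2) lay below WT in both KO pools (12.5%, beside 18.1%). The principal cell median ran from -0.22 to 0.22 with 1 pool left out, lowest with WT replicate 2 dropped and highest with WT replicate 1 dropped. Other lists had negative medians with all 4 pools. The proximal tubule list stood at -0.33, with 8 of 11 tested genes lower, 5 of them (45.5%, beside 18.1% of all genes) below WT in both KO pools, 2 (18.2%, beside 19.7%) above, and 3 (27.3%, beside 6.32%) at an unadjusted p under 0.05. Its median was -0.023 without WT replicate 1 and -0.11 without KO replicate 1. The red blood cell list stood at -0.26, with 5 of 6 lower, at 0.41 without KO replicate 1 and at -0.87 without KO replicate 2. The macrophage list stood at -0.62, with 9 of 11 lower, but at 0.025 without WT replicate 2 and at -1.21 without WT replicate 1. Differences between the lists were not tested.

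Genes that assemble or regulate the pump overlapped between the groups in 7 of 11 cases and lysosomal genes in 18 of 25, or 63.6% and 72.0%, beside 62.2% of all genes. Of 11 tested pump partners 1 had an unadjusted p under 0.05 (9.09%, beside 6.32% of all genes). It was Tldc2, of a family of proteins that bind the pump, with 2.62, 2.81, 1.40 and 1.63 and a log2 fold change of -0.68 (SE 0.15, unadjusted p = 0.0081, adjusted p = 0.705). The partners had a median of -0.051, from -0.065 to -0.020 with 1 pool left out, with 3 below WT in both KO pools (27.3%, beside 18.1%) and 1 above (9.09%, beside 19.7%). Of 25 lysosomal genes 3 had an unadjusted p under 0.05, all lower in KO (12.0%, beside 6.32% of all genes for both directions and 3.03% for KO lower). In both KO pools 6 lay below WT (24.0%, beside 18.1%) and 1 above (4.0%, beside 19.7%), and the median was -0.028. With 1 pool left out that median ran from -0.081, with KO replicate 2 dropped, to 0.028, with KO replicate 1 dropped. Thick limb and distal tubule genes had a median of 0.0052 over 6 genes, with overlap in all 6, and the median ran from -0.19, with WT replicate 2 dropped, to 0.33, with WT replicate 1 dropped.

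Seen pool by pool, the classes did not line up in 1 order. For each gene the mean over the pools was subtracted from log2(FPKM + 0.5), and the median over a class was taken. The restricted isoforms stood at 0.25, -0.30, -0.13 and 0.24, so that each group held 1 high and 1 low pool. Thick limb and distal tubule genes had the same order, with 0.25, -0.38, -0.17 and 0.24. The singly named transporters, enzymes and Foxi1 stood at 0.25, -0.0026, -0.18 and -0.025, and the further intercalated cell genes at 0.22, -0.0061, -0.11 and -0.055. In both of these WT replicate 1 was the highest pool, as it also was for the proximal tubule list, with 0.39, -0.094, -0.20 and 0.00011, and for the principal cell list, with 0.22, -0.20, -0.060 and 0.051. The same pool was highest for pump partners (0.062) and lysosomal genes (0.040). For the restricted isoforms and thick limb genes it stood just above KO replicate 2. Macrophage genes stood at -0.35, 0.90, -0.15 and -0.35, with WT replicate 2 apart.

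**Figure D4:**
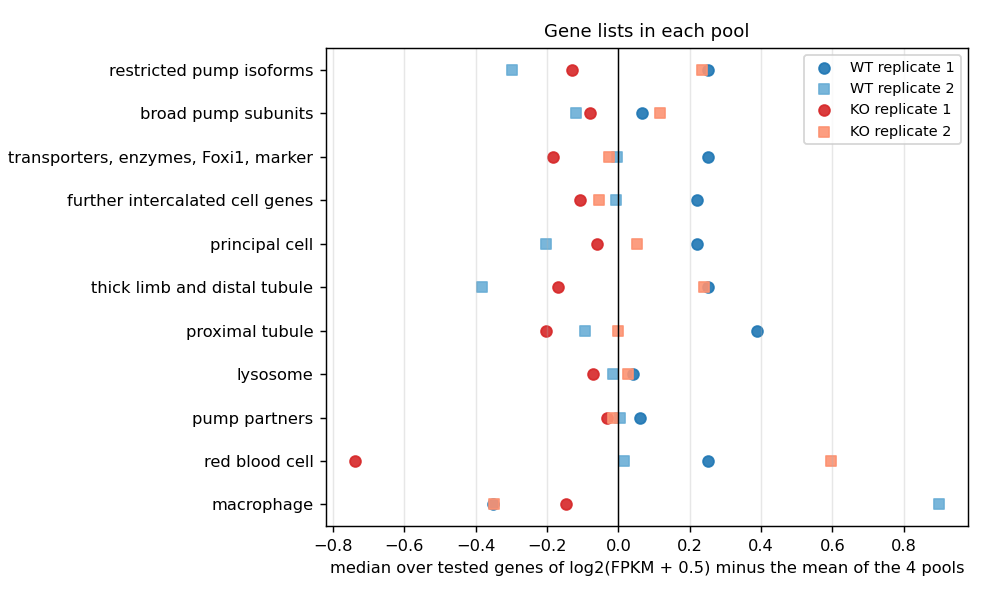
Median over the tested genes of each list of log2(FPKM + 0.5) minus its mean over the 4 pools, with 1 symbol per pool. Restricted pump isoforms range from -0.30 to 0.25 with WT and KO pools interleaved, both intercalated cell lists have WT replicate 1 on the right, as do the principal cell and proximal tubule lists, and macrophage genes have WT replicate 2 on the right at 0.90.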

How the data were processed

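RNA-sequencing of 4 pooled kidney libraries was analysed, 2 WT and 2 KO. Per the labels, reads were mapped with HISAT2 2.0.5 to mm10 (GRCm38.p6); the counting tool and annotation release are not given in the sources used here. The authors deposited FPKM per gene and library. Multiplied by gene length, 100% of nonzero values were whole numbers of a library's smallest unit (within 0.01 read), and the reads so recovered served for depth and for voom. The limit of 3 reads covers counting error only. Labels do not say that pools share no litter or day, so p-values measure the spread between these pools.

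Testing was limited to genes averaging an FPKM of 0.5 or more, as log2(FPKM + 0.5), a scale that understates changes of low genes, with limma 3.58.1 in R 4.3.3 (lmFit, eBayes with trend, two-sided, Benjamini-Hochberg over 15414 genes). No covariate was used. The threshold was an adjusted p of 0.05 with any fold change. The fits were tested on simulated data. Shares of isoforms were compared by exact permutation. Python 3.11.15 was used for the rest. Also tried were pseudocounts of 0.1 and 1, leaving out the filter, a mean FPKM of at least 1, quantile and median-of-ratios scaling, no trend, voom, the replicate block and each pool left out. Leaving out pools for the gene lists was added after the data were seen.

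The members and gene lists were chosen with earlier results of these data known. Values are given for the restricted isoforms and their partners, the 12 singly named genes and the 5 members with the largest log2 fold change in each direction, and for some other members to show their role. Further genes of lists were named as defining genes or for lack of overlap, after their values were seen. Exonic overlap and shared windows were computed from GENCODE M21, whose coordinates were identical for 34 of 37 members. Promoters came from RefSeq (GRCm38.p6). Single genes of the lysosomal list are not reported here.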

Additional observations from a re-analysis of the deposited data

How the results depend on the processing

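No member passed the adjusted threshold under any of the alternatives run. The 4 members at an unadjusted p under 0.05 became 0 without the trend (6.23% of all genes) and 2 with the replicate block (6.05%). The count was 3 without the filter (5.64%) and 5 with quantile normalization (6.33%) or voom (6.15%). With 1 pool left out, the lone pool of a group is assumed to vary like the others. Over genes, the deviations of same-numbered pools correlated at -0.0017. With 1 such pair of deviations this cannot tell whether pools of the same number shared a day or litter. With 1 pool left out, members with KO above WT numbered 2 to 16 and those with KO below 5 to 16. Dropping a pool can end an overlap but never create one, and the share of all genes was not counted in these settings. Whether these counts differ from those of other genes therefore cannot be told. The median of the singly named genes ran from -0.39 to -0.094 with 1 pool left out. Of the 33 tested members, 9 kept their sign in every setting, and 379 of 429 values by gene and setting kept sign and side. With quantile normalization Atp6v1b2 was -0.094, Atp6v1a -0.0068, Atp6v1h -0.012, Atp6v0a2 -0.013 and Atp6v0d1 -0.045. With voom, which moved the median of all genes from 0.0071 to -0.064, Atp6v1b2 was -0.069, Atp6v1h -0.070, Atp6v0a2 -0.051, Atp6v0d1 -0.017 and Hepacam2 -0.069. With median-of-ratios scaling Atp6v1b2 was -0.0031, Atp6v1h -0.0041 and Hepacam2 -0.0018. With 1 pool left out, Atp6v1b1 ran from -0.60 to 0.15, Atp6v1b2 from -0.12 to 0.13, Atp6v1c2 from -0.43 to 0.046, Atp6v1g1 from -0.17 to 0.16, Atp6v1g3 from -0.094 to 0.40, Atp6v0a2 from -0.040 to 0.082, Atp6v0a4 from -0.058 to 0.83, Atp6v0d1 from -0.022 to 0.13, Atp6v0d2 from -0.13 to 0.35, Slc26a4 from -0.87 to 0.21, Foxi1 from -0.26 to 0.11, Car12 from -0.52 to 0.028, Rhbg from -0.021 to 0.66, Hepacam2 from -0.065 to 0.071, Atp6v1a from -0.13 to 0.36, Atp6v1d from -0.21 to 0.16, Atp6v1e1 from -0.29 to 0.10, Atp6v1f from -0.055 to 0.30, Atp6v1g2 from -0.47 to 0.068, Atp6v1h from -0.13 to 0.13, Atp6v0b from -0.38 to 0.057, Atp6v0c from -0.097 to 0.29, Atp6ap1 from -0.094 to 0.060 and Atp6ap2 from -0.12 to 0.058. The cause of these changes was not tested.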
